A study of Mus musculus with 12 samples.

Results

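The Hox genes of the mouse, 39 protein-coding genes whose symbol is Hox followed by a cluster letter and a paralogue number, were followed through the estrous cycle in whole uterus. They were taken by symbol from 35896 genes that the deposited transcripts matched. That rule used no measured value, but the family was chosen with earlier results of these data known. The samples were whole uteri of 12 wild-type Swiss Webster females aged 8 to 12 weeks, 3 of them in proestrus, 3 in estrus, 3 in metestrus and 3 in diestrus. No group carried an engineered allele or received an agent per the labels. The phase of the natural cycle is the only condition that the labels give as differing between the groups. RNA was read by 3' TagSeq, which sequences a short stretch near the polyadenylated end of each transcript. All 4 clusters were represented: 11 HoxA genes on chromosome 6, 10 HoxB genes on chromosome 11, 9 HoxC genes on chromosome 15 and 9 HoxD genes on chromosome 2.

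Hox genes encode homeodomain transcription factors that give cells their position along the body axis. Their order along each cluster follows the order of the body regions in which they act, with low paralogue numbers (anterior genes) toward the head and high numbers (posterior genes) toward the tail. In the female tract, posterior HoxA genes pattern the Müllerian duct, Hoxa9 marking the oviduct, Hoxa10 and Hoxa11 the uterus, and Hoxa13 the cervix and upper vagina. Hoxa10 and Hoxa11 remain active in the adult endometrial stroma, are known to respond to estrogen and progesterone, and are needed for implantation.

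Libraries held 1652841 to 2200563 estimated counts, and levels are given as CPM, the share of a library that a gene takes, scaled to the usual total and with TMM factors. Seeing 0 counts leaves room for up to 3, worth 1.37 to 1.83 CPM by library, and this floor covers counting error only. A difference means an adjusted p under 0.05 in edgeR's quasi-likelihood test, with Benjamini-Hochberg adjustment over the 12052 genes that passed the low-count filter. The labels list the uteri as separate samples of a stage and say no more about their origin, so p-values measure the spread between these samples. In bulk tissue, fewer cells of a type and less RNA per cell cannot be told apart. Markers of muscle, stroma and epithelium were present, which do not by themselves name the organ. The smooth muscle markers Acta2 and Myh11 averaged 2758 and 1189 CPM, the stromal collagen Col1a2 3461 CPM and the epithelial Epcam 286 CPM. Of the cervical and vaginal markers Krt5 and Krt14 averaged 0.134 and 0.0825 CPM, and the 11 of that list summed to 9.83 to 18.7 CPM. Some genes of the oviduct and ovary lists were present: the oviduct and ciliated cell markers summed to 52.5 to 298 CPM, with Tppp3 at a mean of 110.2 and Ovgp1 of 22.7 CPM but the ciliated cell factor Foxj1 of 0.402, and metestrus replicate 6 had the highest sum. The ovary markers summed to 22.3 to 73.3 CPM, with Foxl2 at a mean of 32.0 CPM and the oocyte gene Zp3 at 0 counts. The part of these lists in the Hox results was not tested.

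The uterus read as a posterior HoxA and HoxD tissue with added HoxB genes and Hoxd8 from the anterior groups. Of the 39 Hox genes, 22 had a mean of at least the level worth of 3 counts (1.63 CPM, averaged over libraries), and 16 passed the filter for testing. The posterior HoxA genes, paralogue groups 9 to 13, summed to 289 CPM and the posterior HoxD genes to 114 CPM. The anterior HoxB genes, groups 1 to 8, summed to 98 CPM, the anterior HoxD genes to 44.1 CPM, most of it Hoxd8, and the anterior HoxA genes to 8.80 CPM. HoxC was the least represented cluster, with 14.3 CPM over its 9 genes, or 2.51% of all Hox CPM.

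**Figure D1:**
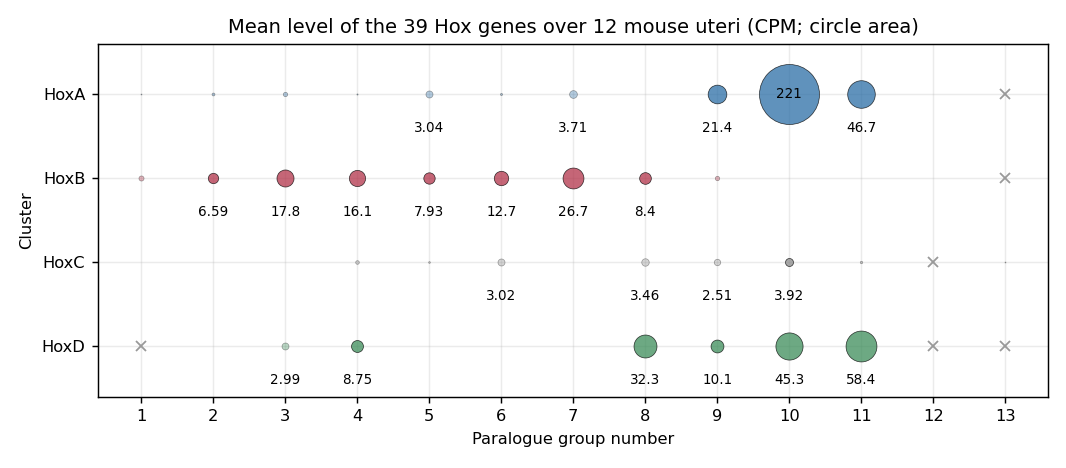
Mean level of each of the 39 Hox genes over 12 uteri, by paralogue group number (horizontal axis) and cluster (vertical axis). Circle area is proportional to the mean CPM, paler circles did not pass the filter for testing, a cross marks 0 counts in every library, and the number is the mean CPM of the 22 genes above the floor; Hoxa10, at 221 CPM, is the largest circle.

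Hoxa10 alone supplied 38.8% of all Hox CPM. Its mean of 221 CPM put it at the 95.1 percentile of the tested genes. The genes next in CPM were Hoxd11 at 58.4, Hoxa11 at 46.7, Hoxd10 at 45.3, Hoxd8 at 32.3 and Hoxb7 at 26.7. A 3' tag library gives about 1 read per transcript end, so that CPM needs no division by length. In the deposited TPM, which divides by effective length, Hoxa10 also came first with 142 TPM, followed by Hoxd10 with 28.0, Hoxb7 with 25.6, Hoxa11 with 24.1 and Hoxd11 with 18.1 TPM. Hoxa10 thus led on both scales, while the order of the next genes depended on the scale.

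The remaining tested genes lay between Hoxa9 at 21.4 CPM and Hoxc10 at 3.92 CPM. Another 6 genes, Hoxa5, Hoxa7, Hoxc6, Hoxc8, Hoxc9 and Hoxd3, lay above the floor but did not pass the filter, at means of 2.51 to 3.71 CPM. There were 11 genes with a few counts but a mean under the floor, of which Hoxb1 was the highest at 1.59 CPM. The last 6, Hoxa13, Hoxb13, Hoxc12, Hoxd1, Hoxd12 and Hoxd13, had 0 counts in every library. Thus 5 of the 6 undetected genes belong to groups 12 and 13, the posterior end of the clusters that patterns the cervix, external genitalia and tail. At this depth a level below 1.37 to 1.83 CPM in a library could not be told from 0.

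Over the 4 stages, 9 of the 39 Hox genes, or 9 of the 16 that could be tested, differed in the F test, where 23.2% of all genes tested did. They fell into 2 groups by cluster. Hoxa10, Hoxa11, Hoxd8, Hoxd10 and Hoxd11 had their highest mean in diestrus and their lowest in estrus, and Hoxb3, Hoxb4, Hoxb5 and Hoxb7 their highest mean in proestrus or estrus. Among all genes tested, 5.62% differed with their highest mean in diestrus, 10.7% in estrus, 5.32% in proestrus and 1.53% in metestrus.

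**Figure D2:**
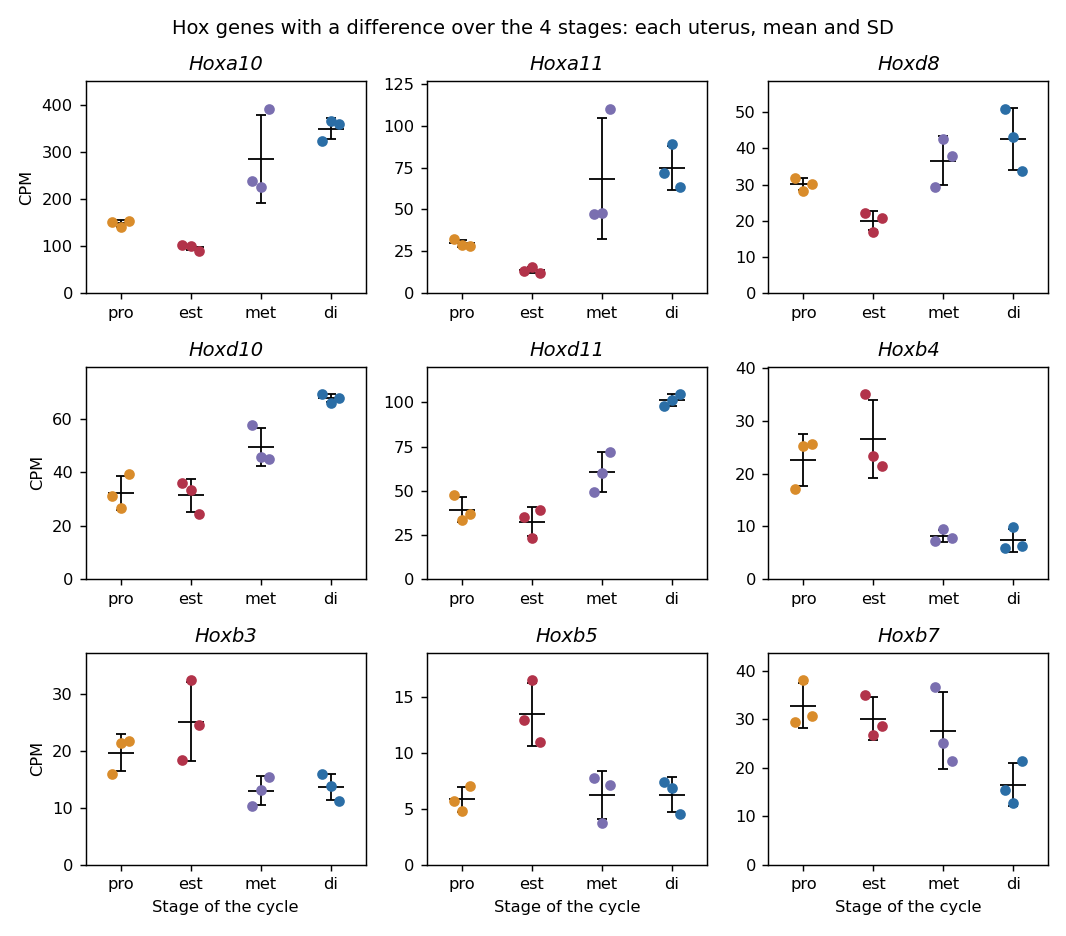
CPM (vertical axes, each starting at 0) of the 9 Hox genes that differed over the stages, in every uterus of proestrus (pro), estrus (est), metestrus (met) and diestrus (di); points are uteri, horizontal bars the mean and error bars the SD (n = 3 per stage). The HoxA and HoxD genes are lowest in estrus and highest in diestrus on average, and Hoxb4 is at 5.94 to 9.82 CPM in the metestrus and diestrus uteri against 17.0 to 35 CPM in the others.

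Hoxa10, the homeodomain factor of the uterine segment, was at 151, 141 and 154 CPM in the proestrus uteri and at 102, 101 and 90.9 CPM in estrus. It was at 239.5, 226 and 393 CPM in metestrus and at 324, 367 and 361 CPM in diestrus. Estrus lay below every other uterus, and metestrus replicate 7 was the highest of all. Hoxa10 was 1.84 ± 0.19 (SE) higher in diestrus than in estrus on the log2 scale, a 3.59-fold difference (n = 3 per stage, edgeR adjusted p = 3.58e-05). It had already risen by 1.55 ± 0.19 from estrus to metestrus (edgeR adjusted p = 0.000418), and it fell by 0.61 on the log2 scale from proestrus to estrus (SE 0.19, edgeR adjusted p = 0.0394). From diestrus to proestrus it fell by 1.24 (SE 0.18, edgeR adjusted p = 0.00116).

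Hoxa11, its neighbour in the cluster, which acts with Hoxa10 in the stroma and is needed for uterine glands, took the same course at a lower level. The proestrus uteri had 32.3, 28.9 and 28.2 CPM and the estrus uteri 13.5, 15.9 and 12.3 CPM. The metestrus uteri had 47.4, 47.6 and 110.1 CPM and the diestrus uteri 71.8, 88.8 and 63.5 CPM. Estrus again lay below all other uteri, and metestrus replicate 7 stood apart from the other 2 metestrus uteri, for Hoxa11 as for Hoxa10. The rise from estrus to diestrus was 2.43 ± 0.31 (SE) on the log2 scale, or 5.39-fold (edgeR adjusted p = 0.000167), the largest of the tested Hox genes. The difference of metestrus from proestrus in Hoxa11 lost its call in 7 of the 12 fits that left out 1 uterus, and it moved the most without metestrus replicate 7 (log2 difference 0.68, edgeR adjusted p = 0.0763).

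The RefSeq (GRCm38.p6) sequence of the 250 bases before the transcription start is shown for 5 of the genes that moved with the stage, since members of both groups can then be read side by side. Hoxd11 has a window before each of its listed starts. Lower case letters hold no searched motif, and capitals mark a match to AGGTCA (the nuclear receptor half-site, here on the reverse strand as TGACCT) or to TGATTNAT (the composite site of a HOX factor with its PBX partner). The window of Hoxa10 shown (chr6:52234940-52235189, minus strand) precedes the start of its coding transcript Hoxa10-202. A second listed Hoxa10 window, chr6:52240855-52241104 before the coding Hoxa10-201, is not shown and held no searched motif. Neither lies directly before the start of Hoxa10-203, which took 97.9% of the counts of Hoxa10. The window of Hoxa11 is chr6:52245811-52246060 on the minus strand. Those of Hoxd10 (chr2:74691641-74691890), Hoxd11 (chr2:74679308-74679557 before Hoxd11-201, which took 99.3% of its counts, and chr2:74682073-74682322 before the coding Hoxd11-202) and Hoxb4 (chr11:96318017-96318266) are on the plus strand.
Hoxa10: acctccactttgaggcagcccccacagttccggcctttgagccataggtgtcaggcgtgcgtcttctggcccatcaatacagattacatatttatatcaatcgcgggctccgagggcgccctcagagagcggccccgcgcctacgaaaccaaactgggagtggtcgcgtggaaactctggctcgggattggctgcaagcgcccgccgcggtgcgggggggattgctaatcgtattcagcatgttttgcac
Hoxa11: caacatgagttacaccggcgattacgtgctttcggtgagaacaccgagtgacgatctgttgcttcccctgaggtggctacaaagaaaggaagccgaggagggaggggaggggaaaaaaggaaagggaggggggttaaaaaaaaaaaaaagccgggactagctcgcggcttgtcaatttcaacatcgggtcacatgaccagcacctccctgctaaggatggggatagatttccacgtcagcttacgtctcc
Hoxd10: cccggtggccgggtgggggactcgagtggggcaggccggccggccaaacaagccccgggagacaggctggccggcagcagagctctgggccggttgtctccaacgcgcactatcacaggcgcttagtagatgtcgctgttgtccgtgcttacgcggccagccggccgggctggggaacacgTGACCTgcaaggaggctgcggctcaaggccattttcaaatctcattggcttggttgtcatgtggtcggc
Hoxd11-201: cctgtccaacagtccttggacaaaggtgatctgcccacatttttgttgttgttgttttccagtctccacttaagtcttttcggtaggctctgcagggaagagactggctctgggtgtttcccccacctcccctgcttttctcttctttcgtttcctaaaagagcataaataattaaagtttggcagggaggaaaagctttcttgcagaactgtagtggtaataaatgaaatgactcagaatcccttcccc
Hoxd11-202: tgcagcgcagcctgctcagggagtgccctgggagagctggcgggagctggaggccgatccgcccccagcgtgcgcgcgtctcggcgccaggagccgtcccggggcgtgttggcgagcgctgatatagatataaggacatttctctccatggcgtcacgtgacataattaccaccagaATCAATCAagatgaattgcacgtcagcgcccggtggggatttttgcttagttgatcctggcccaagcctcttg
Hoxb4: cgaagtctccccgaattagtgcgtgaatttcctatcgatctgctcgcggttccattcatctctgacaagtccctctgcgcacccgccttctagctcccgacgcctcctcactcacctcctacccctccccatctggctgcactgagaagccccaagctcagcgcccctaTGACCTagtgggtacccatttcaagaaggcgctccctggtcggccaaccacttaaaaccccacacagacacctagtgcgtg

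These windows differed in what they held. Hoxd10, which rose in diestrus, and Hoxb4, which fell, each held 1 half-site, the window of Hoxd11-202 held 1 HOX-PBX match, and those of Hoxa10, Hoxa11 and Hoxd11-201 held none of the motifs searched. In all, 24 windows of 300 bases were listed for 22 of the Hox genes, and both strands were searched. AGGTCA was in 7 of the 24 windows (29.2%) against 16.3% of all 32851 windows, and TGATTNAT was in 2 (8.33%) against 3.22%. The palindromic estrogen response element (GGTCA and TGACC with any 3 bases between them), whose arms can overlap the half-site, was in 0 of 24 against 0.0700% of all windows, and the progesterone receptor element (GNACA and TGTNC with any 3 bases between them) in 0 of 24 against 0.475%. Hox windows held a median of 14.5 CpG dinucleotides against 7 in all windows, and a median GC content of 57.7% against 52.7%. Each match is a description of these letters only.

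In the HoxD cluster, 3 of the 4 genes from Hoxd8 to Hoxd11 moved with the stage. These genes are known for patterning limbs, the urogenital tract and the lower spine. Hoxd11 had 47.6, 33.7 and 36.8 CPM in proestrus and 35, 23.3 and 39.1 CPM in estrus. It had 49.4, 60.2 and 72.2 CPM in metestrus and 98, 102 and 105 CPM in diestrus. All diestrus uteri lay above all others, and the metestrus uteri lay between them and the rest. Hoxd11 was 3.1-fold higher in diestrus than in estrus (log2 difference 1.63 ± 0.20 SE, edgeR adjusted p = 0.000114), and fell by 1.37 on the log2 scale from diestrus to proestrus (SE 0.20, edgeR adjusted p = 0.000908).

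Hoxd10 had 31.1, 26.8 and 39.3 CPM in proestrus, 36.2, 33.5 and 24.6 CPM in estrus, 57.7, 45.7 and 45 CPM in metestrus and 69.3, 66.3 and 68.0 CPM in diestrus. The proestrus and estrus uteri overlapped, and the diestrus uteri were the highest and the closest together. Hoxd10 rose 2.17-fold from estrus to diestrus (log2 difference 1.12 ± 0.18 SE, edgeR adjusted p = 0.000859). Hoxd8 had 31.7, 28.4 and 30.2 CPM in proestrus, 22.1, 17.0 and 20.9 CPM in estrus, 29.4, 42.6 and 37.9 CPM in metestrus and 51.0, 43.2 and 33.7 CPM in diestrus. Estrus was the lowest stage without overlap, while metestrus and diestrus overlapped. The difference of diestrus from estrus in Hoxd8 was 1.09 ± 0.20 (SE) on the log2 scale (edgeR adjusted p = 0.00192). Hoxd9, which lies between Hoxd8 and Hoxd10 on the chromosome, ranged from 6.42 to 15.7 CPM and was not called over the stages (edgeR adjusted p = 0.354), and its difference of diestrus from estrus was 0.33 ± 0.32 (SE) on the log2 scale.

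The 4 called HoxB genes, of 7 tested, were lower in diestrus than in estrus. Hoxb4, known for its part in hematopoietic stem cells and cervical vertebrae, had 17.0, 25.2 and 25.7 CPM in proestrus and 35, 23.3 and 21.4 CPM in estrus. It had 7.21, 9.40 and 7.69 CPM in metestrus and 5.94, 9.82 and 6.18 CPM in diestrus. The 6 proestrus and estrus uteri lay above the 6 metestrus and diestrus uteri without overlap. Hoxb4 was 1.83 lower in diestrus than in estrus on the log2 scale, a ratio of 0.280 (log2 difference -1.83 ± 0.29 SE, edgeR adjusted p = 0.000765), and the log2 difference of metestrus from estrus was -1.70 ± 0.29 (SE, edgeR adjusted p = 0.00445). It was 3.07-fold higher in proestrus than in diestrus (edgeR adjusted p = 0.00417).

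Calls of the other 3 HoxB genes were closer to the threshold. Hoxb3, the gene beside Hoxb4, had 15.9, 21.4 and 21.7 CPM in proestrus, 18.4, 32.4 and 24.6 CPM in estrus, 10.3, 13.2 and 15.4 CPM in metestrus and 15.8, 13.7 and 11.2 CPM in diestrus. Every estrus uterus lay above every metestrus and diestrus uterus (log2 difference of diestrus from estrus -0.88 ± 0.26 SE, edgeR adjusted p = 0.0248). Hoxb3os, an antisense gene that is not analysed here, covers 98.5% of the 31-base words in the last 500 bases of the main Hoxb3 transcript and all of those of Hoxb2. The use of strand in the counting is not given in the sources used here, so reads of Hoxb3 and Hoxb2 cannot be told from reads of Hoxb3os.

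Hoxb5, which acts in lung and enteric nerve development, had 5.66, 4.82 and 7.05 CPM in proestrus and 12.9, 16.5 and 10.9 CPM in estrus. It had 7.73, 3.76 and 7.10 CPM in metestrus and 7.42, 6.87 and 4.50 CPM in diestrus. Only estrus stood apart, 2.27-fold above proestrus (log2 difference 1.18 ± 0.35 SE, edgeR adjusted p = 0.0318). Part of that difference lay on Hoxb5-202, a transcript annotated as a retained intron, which took 10.1 CPM of the estrus replicate 3 level and 0 to 3.32 CPM elsewhere. Hoxb7, which acts in kidney duct and axial development, had 29.4, 38.0 and 30.7 CPM in proestrus, 35, 26.7 and 28.6 CPM in estrus, 36.6, 25.1 and 21.3 CPM in metestrus and 15.3, 12.8 and 21.4 CPM in diestrus. Its low stage was diestrus, with metestrus spread between (log2 difference of diestrus from estrus -0.87 ± 0.25 SE, edgeR adjusted p = 0.0218; proestrus over diestrus 1.00 ± 0.25, edgeR adjusted p = 0.0221).

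The calls of Hoxa10, Hoxa11, Hoxb4, Hoxd8, Hoxd10 and Hoxd11 over the stages were also made with any 1 of the 12 uteri left out, with adjusted p of at most 0.000715, 0.00321, 0.00303, 0.0321, 0.00733 and 0.00173 in edgeR's quasi-likelihood test. Those of the weaker HoxB genes were not. Hoxb3 lost its call in 7 of the 12 fits, with the largest adjusted p, 0.138, without estrus replicate 4. Hoxb5 lost it in 9, with 0.229 without estrus replicate 4, and Hoxb7 in 8, with 0.150 without diestrus replicate 4.

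The other 7 tested Hox genes were not called over the stages. Hoxa9, the oviduct gene, ranged from 10.8 to 42.1 CPM, highest in diestrus replicate 5 (edgeR adjusted p = 0.126). It was called over the stages without the low-count filter and without estrus replicate 3, in proestrus against diestrus under the first of these settings and in diestrus against estrus under the second. Hoxb6 ranged from 6.18 to 19.5 CPM and sat lowest in diestrus on average, with 8.46 ± 2.60 CPM (SD, n = 3) against 14.7 ± 3.37 in estrus (edgeR adjusted p = 0.210 over the stages and 0.0917 for diestrus against estrus). Hoxb2, Hoxb8, Hoxc10 and Hoxd4, at means of 3.92 to 8.75 CPM, had adjusted p of 0.701 to 0.746 in edgeR's test. A missed threshold at these counts, 87 to 195 in all over the 12 libraries, does not show that a level stayed the same.

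**Figure D3:**
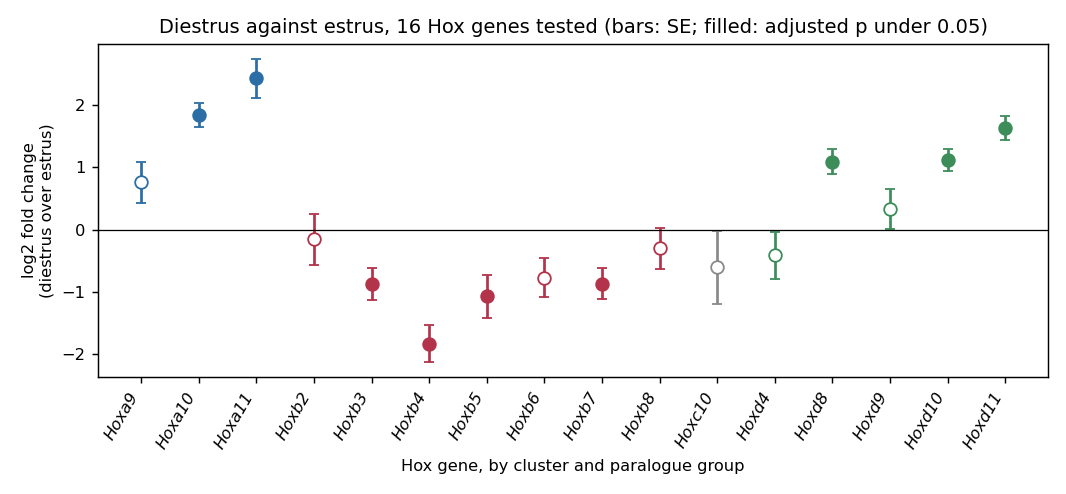
Log2 fold change of diestrus over estrus (vertical axis) for the 16 Hox genes tested, ordered by cluster and paralogue number; points are edgeR estimates, bars ± 1 SE, and filled points have an adjusted p under 0.05 (n = 3 per stage). The 5 filled points above 0 are HoxA and HoxD genes, from 1.09 to 2.43, and the 4 below 0 are HoxB genes, from -0.87 to -1.83.

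Diestrus against estrus was the contrast with the most Hox calls. It called 9 Hox genes, 5 higher and 4 lower in diestrus, where 22.8% of all genes tested were called, 9.73% higher and 13% lower. The median log2 difference of the 16 tested Hox genes was -0.23 against 0.00 for all genes tested. The calls of Hoxa10, Hoxa11, Hoxb4, Hoxd8, Hoxd10 and Hoxd11 in this contrast were also made with any 1 of the 12 uteri left out, with adjusted p of at most 0.0105 in edgeR. Those of Hoxb3 and Hoxb7 were each lost in 4 of these fits and that of Hoxb5 in 6. Every diestrus uterus lay above every estrus uterus in 20.6% of all genes tested and below in 22.4%.

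The step from estrus to metestrus called 7 Hox genes, where 7.56% of the genes tested were called, 2.83% higher and 4.73% lower in metestrus. Hoxa10, Hoxa11, Hoxd8, Hoxd10 and Hoxd11 rose, by 1.55, 2.30, 0.86, 0.67 and 0.89 on the log2 scale, and Hoxb3 and Hoxb4 fell by 0.96 and 1.70. The next step, from metestrus to diestrus, called no Hox gene in edgeR, with a background of 0.224%, 0.133% higher and 0.0913% lower. For this step DESeq2 and limma-voom also called 0. In edgeR 4 Hox genes had an unadjusted p under 0.05, namely Hoxb6, Hoxb7, Hoxd10 and Hoxd11. The background shares given are for the adjusted p, and the share of all genes tested under the unadjusted threshold was not computed. From diestrus to proestrus 6 Hox genes were called, with a background of 8.53%, 4.62% higher and 3.91% lower in proestrus. Hoxb4 and Hoxb7 were higher in proestrus, and Hoxa10, Hoxa11, Hoxd10 and Hoxd11 lower.

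From proestrus to estrus 3 of the 16 tested Hox genes were called, a share near the background of 17.1% (9.67% higher and 7.46% lower in estrus). Hoxb5 rose, and Hoxa10 and Hoxa11 fell, Hoxa11 by 1.10 ± 0.33 (SE) on the log2 scale (edgeR adjusted p = 0.0349). Leaving out any 1 of the 6 uteri compared removed the 3 calls of this step. Metestrus against proestrus called 3 as well, with a background of 4.31% (2.49% higher, 1.82% lower): Hoxa10 was 0.94 ± 0.18 (SE) and Hoxa11 1.20 ± 0.29 higher on the log2 scale, and Hoxb4 lower, at -1.48 ± 0.30 (edgeR adjusted p = 0.0147, 0.0342 and 0.0162). These contrasts share stages, so their calls are not independent of one another.

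Summed by cluster, the Hox output of the uterus changed both in amount and in make-up. All Hox genes together gave 452 ± 17.8 CPM in proestrus (SD, n = 3), 392 ± 36.4 in estrus, 653 ± 138 in metestrus and 779 ± 28.7 in diestrus. HoxA gave 202 ± 7.18, 141 ± 16.3, 384 ± 126 and 464 ± 32.6 CPM in that order of stages, and HoxD 122 ± 16, 105 ± 7.74, 173 ± 6.94 and 233 ± 9.96 CPM. HoxB gave 115 ± 12.1, 128 ± 11.7, 85.4 ± 5.78 and 68.1 ± 4.42 CPM. As a share of all Hox CPM, HoxB went from 25.4% ± 2.91 in proestrus and 32.7% ± 0.228 in estrus to 13.3% ± 1.82 in metestrus and 8.74% ± 0.388 in diestrus. HoxC, with 3.93 to 26.4 CPM over the 12 uteri, was spread most widely in diestrus.

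The counts of Hoxa10 and Hoxb4 came from the same library in each uterus, so that their ratio does not depend on the library scaling. Hoxa10 had 8.90, 5.60 and 6.00 counts per Hoxb4 count in proestrus and 2.91, 4.32 and 4.26 in estrus. It had 33.2, 24 and 51.1 in metestrus and 54.6, 37.4 and 58.4 in diestrus. The ratio in every metestrus and diestrus uterus exceeded that in every proestrus and estrus uterus. The pair was taken for this description after its levels were seen, and no test was made.

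**Figure D4:**
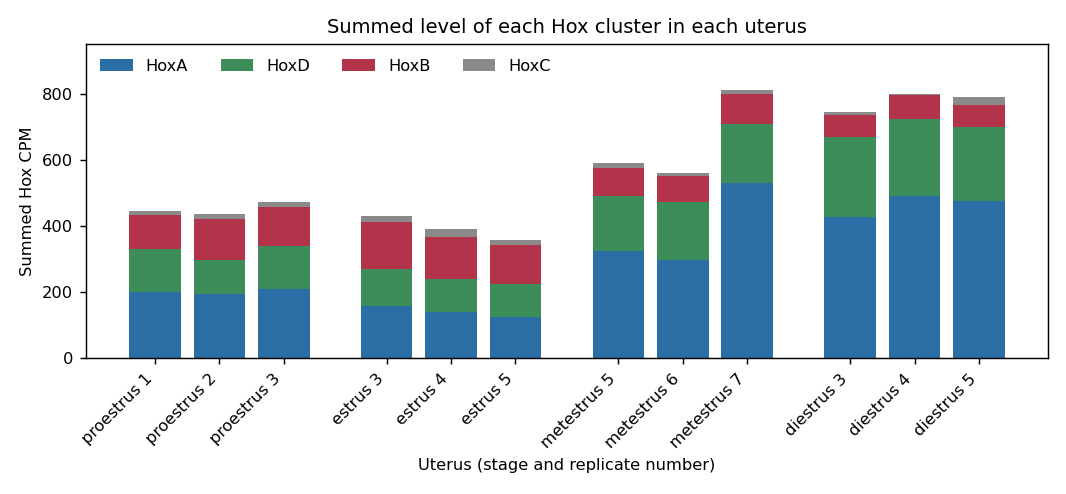
Summed CPM of the 4 Hox clusters (stacked bars, vertical axis from 0) in each of the 12 uteri, grouped by stage. The HoxA and HoxD parts are larger in the metestrus and diestrus uteri, where the HoxB part lies between 64.8 and 91.1 CPM against 101 to 141 CPM in proestrus and estrus.

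Markers of the tissue's cell types also moved with the stage. The 10 epithelial markers, which include Epcam, Cdh1, Muc1 and keratins, summed to 1792 to 2447 CPM in proestrus and 1630 to 2070 in estrus, but to 689 to 1274 CPM in metestrus and 678 to 852 in diestrus. All 10 differed over the stages (23.2% of all genes tested) and 9 were lower in diestrus than in estrus (13%), with a median log2 difference of -1.41. In proestrus against diestrus 8 were higher and 2 lower (4.62% and 3.91% of all genes tested). The lower ones were Cldn3, at 70.8 ± 21.8 CPM (SD, n = 3) in proestrus and 141 ± 36.5 in diestrus, and Cldn4, at 1.81 ± 0.930 and 5.77 ± 1.10 CPM. The HoxB sum was also lower in metestrus and diestrus. Among the called HoxB genes, Hoxb4 was higher in every proestrus and estrus uterus than in every metestrus and diestrus uterus, as was Hoxb3 by a margin within rounding, while Hoxb5 was high in estrus alone and Hoxb7 low in diestrus alone. The part of the epithelial markers in the HoxB result was not tested.

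The stromal markers differed among themselves. The median log2 difference of the 9 analysed was -0.45 from proestrus to estrus, 0.35 from estrus to metestrus, 0.10 from metestrus to diestrus and 0.32 in diestrus against estrus. The called HoxA and HoxD genes had the same signs there, but in metestrus against proestrus the median was -0.09, where those genes had positive estimates. From proestrus to estrus 1 stromal marker was higher and 2 lower (9.67% and 7.46% of all genes tested). The higher one, Pdgfra, rose by 1.55 ± 0.15 (SE) on the log2 scale and fell by 0.54 from estrus to metestrus (edgeR adjusted p = 6.74e-05 and 0.0331). Their sum, in which collagen genes and Dcn weigh most, came to 13635 to 13889 CPM in proestrus, 10935 to 11456 in estrus, 6987 to 15240 in metestrus and 9285 to 12860 in diestrus. Among the stromal markers 2 were higher and 1 lower in diestrus than in estrus (9.73% and 13% of all genes tested). The stromal transcription factor Hand2 rose by 1.13 ± 0.26 (SE), Vcan by 2.61 ± 0.38 on the log2 scale, and Dcn fell by 0.96 (edgeR adjusted p = 0.00696, 0.000438 and 0.00129). Smooth muscle markers summed to 7103 to 10009 CPM in proestrus and 9492 to 12084 in estrus. They summed to 6640 to 8625 CPM in metestrus and 7218 to 7755 in diestrus. In diestrus against estrus 3 of the 10 were lower and 0 higher (13% and 9.73% of all genes tested). Leukocyte markers were at 292 to 362 CPM in proestrus and 533 to 1095 CPM in the other stages. The part of these cell types in the HoxA and HoxD results was not tested.

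**Figure D5:**
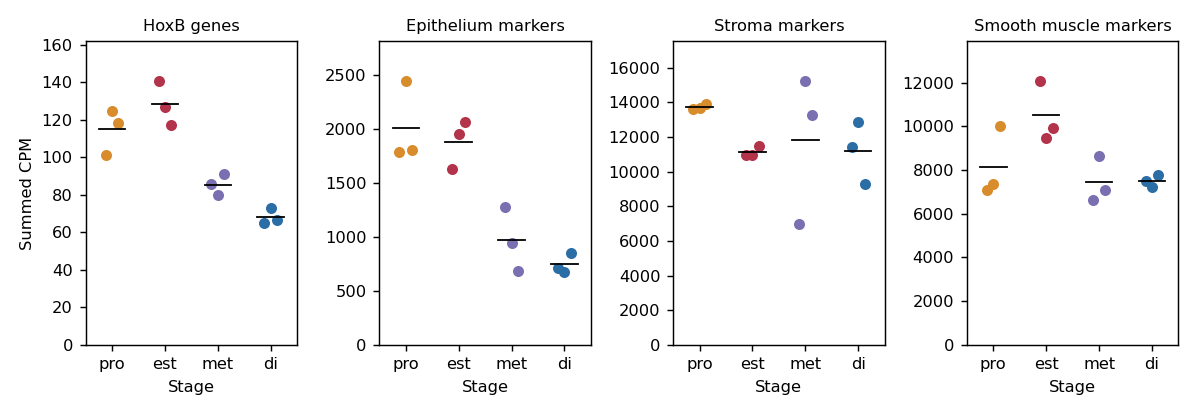
Summed CPM (vertical axes, each starting at 0) of the 10 HoxB genes and of the epithelial, stromal and smooth muscle markers in each uterus by stage; points are uteri and lines stage means. HoxB and epithelial markers are both lower in metestrus and diestrus, the epithelial means being 2015, 1885, 969 and 748 CPM from proestrus to diestrus, and metestrus replicate 5 has the lowest stromal sum.

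Which transcript of a gene gave the tags mattered for several of the called genes. Of the Hoxa10 counts, 97.9% were assigned to Hoxa10-203, annotated as a processed transcript without a coding frame, which ends 2 bases from the coding Hoxa10-202 and shares 100% of its last 500 bases with it. For Hoxa11, 87.5% were on Hoxa11-202, which likewise ends 4 bases from the coding Hoxa11-201 and shares all of its last 500 bases. Tags in such shared ends cannot be assigned to one transcript or the other, so for these genes the sum over transcripts is the quantity described. Hoxd11 was different: 99.3% of its counts were on Hoxd11-201, a processed transcript that ends 2848 bases from the coding Hoxd11-202 and shares 0% of its last 500 bases. The Hoxd11 values therefore describe counts assigned to Hoxd11-201, and the positions of the reads were not examined. With transcripts annotated as protein coding alone, Hoxa10 and Hoxd11 did not pass the filter, and Hoxa11 and Hoxb5 lost their calls (edgeR adjusted p = 0.0783 and 0.778 over the stages).

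Position along the chromosome was also shared. In GENCODE M21 (GRCm38) Hoxa10 spans chr6:52231197-52240854 and Hoxa11 chr6:52242106-52245810, both on the minus strand and 1251 bases apart. The 3' end of Hoxa10 lies 107 bases from the 5' end of Hoxa9, on the same strand. The HoxD run from Hoxd11 (chr2:74679557-74687016) over Hoxd10 and Hoxd9 to Hoxd8 (chr2:74704615-74707933) is unbroken on the plus strand. The HoxB genes that moved, from Hoxb7 (chr11:96286623-96290162) to Hoxb3 (chr11:96323326-96347930), flank Hoxb6, which passed no contrast. Of 18 other genes listed within the clusters, mostly noncoding, 1 was analysed and had 0 counts. The noncoding genes Hotair and Hoxa11os are not analysed here.

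HOX proteins bind DNA with cofactors of the TALE homeodomain class. Of the 10 TALE genes tested, not all of them HOX cofactors, 3 differed over the stages, a share near the 23.2% of all genes tested. Pknox2 rose from 9.89 ± 1.28 CPM (SD, n = 3) in estrus to 26.9 ± 4.08 in diestrus, and Tgif2 from 9.35 ± 2.94 to 25.5 ± 4.58, by 1.43 ± 0.31 and 1.42 ± 0.28 (SE) on the log2 scale (edgeR adjusted p = 0.00511 and 0.0028). Tgif1, a TALE repressor, went from 53.4 ± 8.27 CPM in estrus to 16.2 ± 3.40 in diestrus (log2 difference -1.73 ± 0.23, edgeR adjusted p = 0.000221). The cofactor Meis2, at 164 CPM on average, was not called over the stages (edgeR adjusted p = 0.0570) but was higher in estrus than in proestrus, at 217 ± 11.8 against 127 ± 18.1 CPM (log2 difference 0.77 ± 0.21 SE, edgeR adjusted p = 0.0217). In diestrus against estrus 2 of the 10 were higher and 2 lower (9.73% and 13% of all genes tested), the other lower gene being Meis1 (log2 difference -0.56 ± 0.17, edgeR adjusted p = 0.0291).

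Polycomb and trithorax complexes keep Hox genes silent or active. Of 25 Polycomb genes 2 differed over the stages, Ezh1 and Pcgf5, and 3 were lower and 0 higher in diestrus than in estrus (13% and 9.73% of all genes tested). Ezh1, a histone H3 lysine methyltransferase, went from 55.4 ± 19.1 CPM in estrus to 24.5 ± 3.41 in diestrus (log2 difference -1.17 ± 0.24, edgeR adjusted p = 0.00339). Of 20 genes in the trithorax list, not all of them members of that group, 5 differed over the stages, namely Kmt2a, Kmt2c, Psip1, Mllt1 and Aff4. In diestrus against estrus 2 of the 20 were higher and 4 lower (9.73% and 13% of all genes tested). Kmt2a, the MLL methyltransferase that maintains Hox expression, was lower in diestrus, at 92.2 ± 11.9 CPM against 130.3 ± 11.2 in estrus (log2 difference -0.50 ± 0.15, edgeR adjusted p = 0.0311). Psip1, which tethers MLL to chromatin, was higher by 1.08 ± 0.16 (edgeR adjusted p = 0.000449). The share of Polycomb genes called over the stages was under the 23.2% of all genes tested, and that of the trithorax list was near it.

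Other regulators of the Müllerian tract changed too, 11 of 19 tested over the stages (23.2% of all genes tested), with 6 higher and 2 lower in diestrus than in estrus (9.73% and 13% of all genes tested). Sox17, a factor of the endometrial epithelium, rose by 1.59 ± 0.15 (SE) on the log2 scale and Msx1, a homeobox gene of uterine receptivity, by 2.50 ± 0.37 (edgeR adjusted p = 1.63e-05 and 0.000451). Pgr, the progesterone receptor, rose by 1.48 ± 0.28 and Hand2, its stromal target, by 1.13 ± 0.26, and Pax8 fell by 0.73 (edgeR adjusted p = 0.00211, 0.00696 and 0.00295). Msx2 was highest in proestrus, at 20.2 ± 7.94 CPM against 3.91 ± 1.43 in estrus (edgeR adjusted p = 0.0127). The median log2 difference of diestrus from estrus over the 19 was 0.42, against 0.00 for all genes tested.

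Of 15 tested genes listed as known targets of HOXA10 or HOXA11, a list that holds Hoxa10 itself, 8 differed over the stages (23.2% of all genes tested), and 4 were higher and 4 lower in diestrus than in estrus (9.73% and 13%). The lower ones included Spp1, the secreted adhesion protein osteopontin, at 140 ± 88.4 CPM in estrus and 5.56 ± 2.70 in diestrus, and Cdkn1a and Cdkn1b, inhibitors of the cell cycle, with log2 differences of -2.0 ± 0.21 and -0.77 ± 0.16. Fkbp4, a cochaperone of the progesterone receptor, rose by 0.98 ± 0.18 on the log2 scale (edgeR adjusted p = 0.00167). The list therefore moved in both directions between the stages. Of 14 tested homeobox genes from outside the clusters, 9 differed over the stages (23.2% of all genes tested), and in diestrus against estrus 3 were higher and 5 lower (9.73% and 13%). Six4, Zfhx3, Dlx6 and Dlx5 were lower in diestrus, by log2 differences of -2.36, -0.94, -0.96 and -1.14, and Msx1 was higher. Satb1, a chromatin organizer, was lowest in proestrus, at 14.1 ± 0.869 CPM against 37.8 ± 9.33 in estrus. The ParaHox and Hox-linked genes Cdx, Gsx, Evx, Mnx1 and Pdx1 had 0 counts in every library, and the Meox1 gene, the only 1 of 13 tested, was not called (edgeR adjusted p = 0.622).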

How the data were processed

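Whole uteri of 12 mice were read by 3' TagSeq from 100 ng of RNA, per the labels' protocols. The authors deposited estimated counts and TPM per transcript, unscaled and divided by effective length respectively, per the file headers. The submitters' processing notes name kallisto; the options, transcript set and strand setting are not given in the sources used here, and no molecular identifiers are described, so PCR copies stay in the counts.

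Of 119414 transcripts, 116640 (97.7%) matched GENCODE M21 and were summed to 35896 genes, which were rounded to whole numbers. With edgeR 4.0.16 (R 4.3.3), filterByExpr by stage left 12052 genes. TMM factors lay between 0.907 and 1.05, and a quasi-likelihood fit with 1 coefficient per stage, all 12 uteri and no covariate gave an F test of stage and 6 contrasts (two-sided), adjusted by Benjamini-Hochberg. The SE is the log2 difference over the root of its F statistic. A prior count of 2 was set only for the log2 CPM behind the correlations of libraries by replicate number. CPM used the TMM factors. The fit was tested on simulated data. No pair of libraries in a stage agreed within sampling noise (smallest chi-square per degree of freedom 3.05).

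The Hox genes and all gene lists were chosen with earlier results of these data known. Named genes were all tested Hox genes and, from each list, at most 6 by smallest p among those called in the F test. Acta2, Myh11, Col1a2, Epcam, Cldn3, Cldn4, Meis1, Meis2, Vcan, Dcn, Pdgfra, Tppp3, Ovgp1, Foxl2 and genes at or near 0 were named after their values were seen. The lists were of TALE, Polycomb, trithorax, cluster noncoding, ParaHox, Müllerian, HOXA10 and HOXA11 target and other homeobox genes, and of cell type markers. Motifs and k-mers of 31 bases were searched as exact text in RefSeq promoters and GENCODE transcripts. Alternatives were DESeq2 1.42.0, limma-voom (limma 3.58.1), other scalings and filters, TPM-scaled counts, a replicate block, coding transcripts alone and leaving out each library.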

Additional observations from a re-analysis of the deposited data

How the results depend on the processing

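Of 753 values of single Hox genes recomputed under the alternatives, 605 kept their side of the threshold, 147 lost the call and 1 reversed, and 569 of 570 contrast values kept their sign. The reversed value was Hoxa11 in estrus against proestrus with coding transcripts alone, 4.95 on the log2 scale (adjusted p = 0.257), where the coding transcript had 0 counts in every proestrus library. The number of Hox genes called over the stages (9) was 5 with a minimum mean of 50 counts, which left 5 Hox genes to test, and 5 with coding transcripts alone, which left 13. Diestrus against estrus (9) gave 5 and 5 under the same settings. With coding transcripts alone, estrus against proestrus (3) gave 0, metestrus against estrus (7) gave 2, proestrus against diestrus (6) gave 3 and metestrus against proestrus (3) gave 1. With counts scaled from TPM, estrus against proestrus gave 0. With the 6 samples of the stages compared alone, metestrus against estrus gave 3 and metestrus against proestrus 0. Without a filter, diestrus against metestrus (0) gave 1, Hoxd11. The causes were not tested beyond the number of genes and samples stated.

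Leaving out 1 library gave 6 to 9 Hox genes over the stages, 0 to 4 for estrus against proestrus, 3 to 7 for metestrus against estrus, 0 for diestrus against metestrus, 4 to 6 for proestrus against diestrus, 0 to 3 for metestrus against proestrus and 6 to 9 for diestrus against estrus. In metestrus against proestrus Hoxa10 lost its call without any 1 of the 3 proestrus uteri (adjusted p up to 0.0739), Hoxb4 without proestrus replicate 2 or 3 or metestrus replicate 7, and Hoxa11 without any proestrus uterus, estrus replicate 3 or 5, metestrus replicate 7 or diestrus replicate 3, and also with limma-voom and counts scaled from TPM. In metestrus against estrus Hoxd11 lost its call without estrus replicate 4, Hoxd8 without estrus replicate 4 or 5 or metestrus replicate 6, and Hoxb3 and Hoxd10 in 8 and 9 of the 12 fits. In proestrus against diestrus Hoxa11 lost it without proestrus replicate 2, and Hoxb7 without proestrus replicate 2 or 3 or diestrus replicate 3 or 4. In diestrus against estrus Hoxb3 lost it without estrus replicate 4 or 5 or diestrus replicate 4 or 5, Hoxb7 without estrus replicate 3 or 5 or diestrus replicate 3 or 4, and Hoxb5 without any 1 of the 6. The number of Hox genes above the floor (22) was 25 at 1 CPM, 15 at 5 CPM, 16 with 3 counts in every library, 19 with coding transcripts alone and 22 to 23 with 1 library left out. DESeq2 and limma-voom each called 8 over the stages, without Hoxb5.

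Uteri of different stages share only a replicate number: in 7 pairs with the same number, deviations from the stage means correlated at -0.04 to 0.16, and 1 was over 0.1. As a block, the number leaves 2 residual degrees of freedom. The replicate block gave 6 Hox genes over the stages, 0 for estrus against proestrus, 2 for metestrus against estrus, 0 for diestrus against metestrus, 3 for proestrus against diestrus, 0 for metestrus against proestrus and 9 for diestrus against estrus, while the genes called of all tested fell from 2793 to 2172 over the stages. The median log2 difference of all genes tested was at most 0.0689 in size under any of the scalings. With Hox genes kept only where also unique against annotated genes not analysed here, an alternative chosen after seeing the data, 8 were called over the stages, 6 in metestrus against estrus and 8 in diestrus against estrus, since Hoxb3 drops out. Depth limits the genes near 3 counts, and HoxC most.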
